A study of Mus musculus with 4 samples.

Results

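Cholesterol synthesis was examined through 8 genes, taken by symbol from the 56748 genes of a mouse gene count table. They were the transcription factor gene Srebf2, its regulator Insig1, and the enzyme genes Hmgcs1, Idi1, Fdps, Sqle, Lss and Dhcr7. No uptake gene is among them, and genes of uptake are described separately below. All 8 were found and all 8 passed the expression filter, as did 15320 genes in all. Bulk RNA sequencing was performed on lung material with metastases of 4T1, a mouse triple-negative breast cancer (TNBC) line, in 2 saline and 2 ADC/cmLumiOpto samples. Female BALB/cJ mice aged 7 weeks had been injected through the tail vein with luciferase-expressing 4T1-FLuc cells. Treatment combined an anti-CD276 antibody-drug conjugate (ADC) carrying the microtubule inhibitor mertansine (DM1) with cmLumiOpto, a vector for a light-gated channel that depolarizes mitochondria, driven by a cfos promoter, and given with its luminescent substrate. Neither agent was given alone in the samples analyzed, so the 2 cannot be told apart. The labels and the study's methods differ on the ADC dose (16 mg/kg in the labels, 8 mg/kg in the methods), on the material (harvested tumor cells or dissociated lung tissue), on the control (PBS or saline) and on the number of samples (the methods give 4 per group), and the labels add the abbreviation Olap to the treatment.

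Cholesterol is built from acetyl-CoA through mevalonate, farnesyl diphosphate, squalene and lanosterol. SREBP-2, the protein of Srebf2, is held in the endoplasmic reticulum by INSIG proteins while sterols are plentiful. When sterols fall, it is carried to the Golgi by SCAP, cut by the site-1 and site-2 proteases, and moves to the nucleus to raise transcription of synthesis enzymes, INSIG1 and its own gene. Proliferating tumor cells are known for a high demand for sterols, and alveolar type 2 cells of the lung make lipid for surfactant.

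The promoter windows of the 4 members with an unadjusted p under 0.05 in the comparison below are shown because SREBP-2 is known to bind sterol regulatory elements near the start sites of such genes. Each spans 300 bases around the start site, most of them upstream, 5′ to 3′ on the gene's strand, from RefSeq on GRCm38.p6. Capitals mark matches on either strand to TCACNCCA, the first 8 letters of the sterol regulatory element searched here (extended by 1 base where the full TCACNCCAC is matched), and to CCAAT, the NF-Y motif, which reads ATTGG on the other strand. The windows lie at chr15:82147019-82147318 for Srebf2, chr13:119690101-119690400 for Hmgcs1, chr10:76531355-76531654 for Lss and chr5:28071162-28071461 for Insig1, all on the plus strand.
Srebf2: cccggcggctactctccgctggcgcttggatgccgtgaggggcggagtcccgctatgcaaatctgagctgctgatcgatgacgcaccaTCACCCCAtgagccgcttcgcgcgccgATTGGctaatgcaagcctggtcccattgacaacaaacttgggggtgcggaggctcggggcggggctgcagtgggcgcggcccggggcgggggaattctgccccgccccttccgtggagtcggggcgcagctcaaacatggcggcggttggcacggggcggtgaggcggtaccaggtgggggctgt
Hmgcs1: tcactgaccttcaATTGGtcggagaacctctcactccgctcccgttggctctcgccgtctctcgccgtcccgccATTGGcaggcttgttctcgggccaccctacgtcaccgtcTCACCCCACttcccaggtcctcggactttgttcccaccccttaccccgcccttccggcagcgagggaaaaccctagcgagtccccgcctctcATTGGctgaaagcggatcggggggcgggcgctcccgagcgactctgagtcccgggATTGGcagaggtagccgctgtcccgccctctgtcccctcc
Lss: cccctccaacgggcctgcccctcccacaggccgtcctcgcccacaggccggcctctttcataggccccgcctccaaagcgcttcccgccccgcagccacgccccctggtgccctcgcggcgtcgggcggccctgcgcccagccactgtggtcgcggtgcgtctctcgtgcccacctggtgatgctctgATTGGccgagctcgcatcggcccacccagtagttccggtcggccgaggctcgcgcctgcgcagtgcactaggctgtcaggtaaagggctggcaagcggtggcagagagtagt
Insig1: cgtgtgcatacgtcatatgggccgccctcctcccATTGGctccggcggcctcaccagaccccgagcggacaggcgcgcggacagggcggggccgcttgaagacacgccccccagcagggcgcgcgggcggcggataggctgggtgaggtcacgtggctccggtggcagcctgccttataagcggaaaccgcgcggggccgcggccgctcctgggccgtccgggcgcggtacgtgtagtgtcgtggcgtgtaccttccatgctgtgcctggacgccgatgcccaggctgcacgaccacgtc

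RefSeq windows were matched for 6 of the 8 members, with 3 windows for Dhcr7 and 1 each for the others. The full TCACNCCAC was found in Hmgcs1, starting 137 bases before the start site, and 1.24% of 32851 mouse promoter windows hold it. The 8-letter form, which overlaps the full one, was also found in Srebf2, 162 bases before the start site, and is in 4.36% of windows. CCAAT was present in 6 of the members' 8 windows (37.4% of all windows), and GGGCGG, an Sp1 motif that is not capitalized, in 7 of 8 (35.7% of all windows). Each was found in at least 1 window of all 6 genes, Dhcr7 having 3 windows in which to hold it. These are matches of letters and not measured binding sites, and the absence of a match says only that these letters are not in the window.

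The libraries held 15263375 to 19675436 counts, at which a floor of 3 counts, which covers counting error only, equals between 0.152 and 0.197 CPM. Here CPM is a gene's count relative to the library total, scaled by edgeR's TMM method. The samples were labeled as tumor in lung. The summed level of the 4 genes listed for tumor epithelium (Krt8, Krt18, Epcam and Cd276) was 2332 and 2795 CPM in saline. In ADC/cmLumiOpto it was 2213 and 2147 CPM. This sum does not separate tumor cells from epithelial cells of the lung, so it is not a measure of tumor content. Markers of normal lung were also present, and their levels are given below beside the results they accompany.

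Of the 8 members, 7 were lower in both ADC/cmLumiOpto samples than in both saline samples, and none was higher in both. Across all tested genes, 28.8% were lower in both ADC/cmLumiOpto samples and 28.1% were higher in both. By edgeR's quasi-likelihood test, 4 members (Srebf2, Hmgcs1, Lss and Insig1) had an unadjusted p under 0.05, all in the lower direction, against 12.2% of all tested genes in that direction and 11% in the other. No member passed the adjusted threshold of 0.05, and neither did any other gene (0% of 15320, smallest adjusted p 0.116, with 3553 genes at an unadjusted p under 0.05). The median log2 fold change of the members (ADC/cmLumiOpto minus saline) was -0.58, where that of all tested genes was 0.028. Because no label says that the 2 samples of a group came from separate mice, these p-values measure the spread between these samples.

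**Figure D1:**
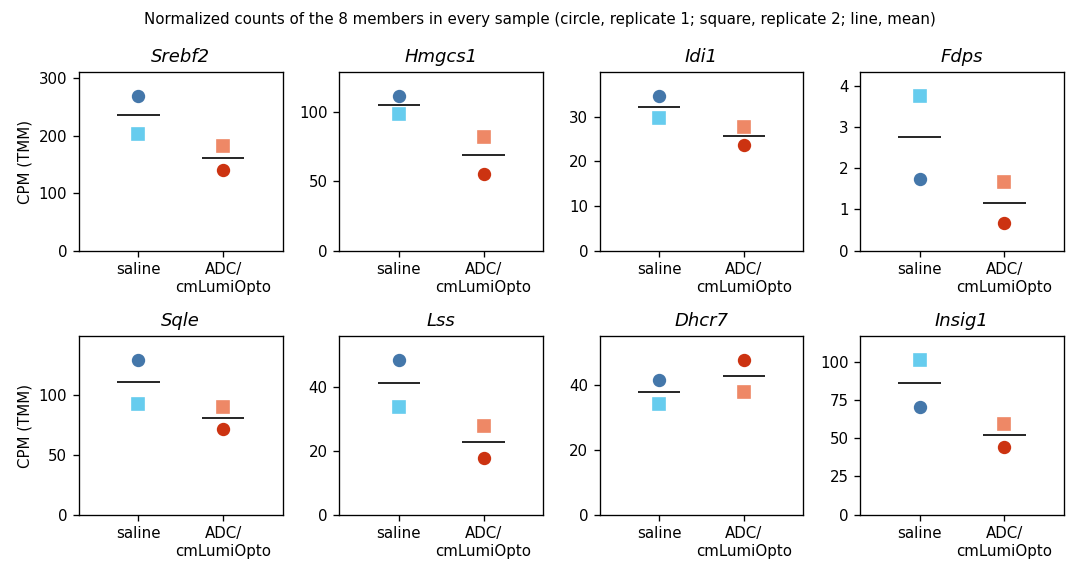
Normalized counts (CPM, TMM) of the 8 members in each of the 4 samples, with circles for replicate 1, squares for replicate 2 and a line at the group mean. In 7 of 8 panels both ADC/cmLumiOpto points lie below both saline points, and in the Dhcr7 panel the groups overlap.

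Srebf2 (ENSMUSG00000022463, chromosome 15), the gene of the transcription factor that drives the pathway, had 269.6 and 202.8 CPM in saline and 140.1 and 182.4 CPM in ADC/cmLumiOpto. The groups did not overlap, and the lower saline sample lay close to the higher treated one. This is a log2 fold change of -0.55 (SE 0.22, n = 2 per group, adjusted p 0.198, edgeR quasi-likelihood test).

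Insig1 (ENSMUSG00000045294, chromosome 5), which retains the SREBP-SCAP complex and is itself a SREBP target, had 70.8 and 101.6 CPM in saline and 44.5 and 59.3 CPM in ADC/cmLumiOpto. The groups did not overlap, and the higher saline value was in replicate 2, as for Fdps and unlike the other 6 members. Its log2 fold change was -0.73 (SE 0.24, adjusted p 0.156, edgeR).

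Hmgcs1 (ENSMUSG00000093930, chromosome 13), the cytosolic synthase that makes HMG-CoA, had 111.6 and 98.5 CPM in saline and 55.5 and 82.0 CPM in ADC/cmLumiOpto. The saline samples were close to each other, and the treated samples differed more. On the log2 scale the fold change was -0.61 (SE 0.23, adjusted p 0.180, edgeR).

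Idi1 (ENSMUSG00000058258, chromosome 13), the isomerase that makes dimethylallyl diphosphate, had 34.8 and 29.8 CPM in saline and 23.6 and 27.8 CPM in ADC/cmLumiOpto. The groups were separated by a gap smaller than the spread within either of them. The log2 fold change was -0.33 (SE 0.19, adjusted p 0.344, edgeR), with a 95% interval from -0.79 to 0.14.

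Fdps (ENSMUSG00000059743, chromosome 3), which makes farnesyl diphosphate, the branch point between sterols and other isoprenoids, had only 28 and 56 counts in saline and 12 and 34 counts in ADC/cmLumiOpto. These are 1.75 and 3.77 CPM against 0.680 and 1.66 CPM. The log2 fold change of -1.22 was the most negative of the 8 and the least precise (SE 0.64, adjusted p 0.295, 95% interval from -2.76 to 0.32, edgeR).

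The Fdps values are uncertain because the gene has near-identical copies. The processed pseudogene Gm3571 matches the longest Fdps protein-coding transcript (GENCODE vM21) at 98.9% identity over 1062 bases. It had 166 and 132 counts in saline and 106 and 190 counts in ADC/cmLumiOpto, more than Fdps itself in every sample. A further copy, Gm5873, had 19, 14, 9 and 30 counts in the same order. Summed over Fdps and its processed pseudogenes, a sum chosen after the counts were seen, the level was 13.3 and 13.6 CPM in saline and 7.20 and 12.4 CPM in ADC/cmLumiOpto, and between 9.45% and 27.7% of the counts lay on Fdps. Both treated samples were again below both saline samples in this sum, and the summed level was several times that listed for Fdps. Another listed gene, Gm43738, overlaps Fdps on the same strand and had 0 counts in all 4 samples. For Idi1, the pseudogene Gm13502 is identical over 684 bases and had between 4 and 25 counts.

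Sqle (ENSMUSG00000022351, chromosome 15), the squalene epoxidase and a rate-limiting step of the sterol branch, had 130.0 and 92.6 CPM in saline and 72.0 and 90.4 CPM in ADC/cmLumiOpto. Saline replicate 2 and ADC/cmLumiOpto replicate 2 were nearly equal, and the difference came from the other two samples. For Sqle the log2 fold change was -0.46 (SE 0.22, adjusted p 0.270, edgeR).

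Lss (ENSMUSG00000033105, chromosome 10), the cyclase that forms lanosterol, had 48.8 and 33.9 CPM in saline and 17.7 and 27.8 CPM in ADC/cmLumiOpto. The groups did not overlap, and the lowest value was in ADC/cmLumiOpto replicate 1. For Lss the log2 fold change was -0.86 (SE 0.29, adjusted p 0.159, edgeR).

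Dhcr7 (ENSMUSG00000058454, chromosome 7), the reductase of a last step to cholesterol, had 41.5 and 34.0 CPM in saline and 47.7 and 37.7 CPM in ADC/cmLumiOpto. It was the exception among the 8, with overlapping groups and a log2 fold change of 0.18 (SE 0.20, adjusted p 0.623, edgeR). The 95% interval from -0.30 to 0.65 holds changes in either direction.

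Most members shared their lowest sample, while the highest value lay in saline replicate 1 for 5 of them and in saline replicate 2 for 2. The lowest value of 7 of the 8 members lay in ADC/cmLumiOpto replicate 1, and Dhcr7 had its highest value there. Between the treated samples, 7 of 8 members were lower in replicate 1, with a median difference of 0.40 on the log2 scale, compared with 52% of all tested genes and a median of 0.019. The size of the difference between groups therefore rested on this sample in part. Without ADC/cmLumiOpto replicate 1, the number of members lower at an unadjusted p under 0.05 was 0 of 8 (7.86% of all genes in that fit) and their median log2 fold change was -0.36, with 8 of 8 lower, since that of Dhcr7 became -0.0018. Without saline replicate 1 the number was 2 (8.55% of all genes) and the median -0.44. Without saline replicate 2 they were 4 (5.09% of all genes) and -0.62, and without ADC/cmLumiOpto replicate 2 they were 6 (12.8% of all genes) and -0.84.

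**Figure D2:**
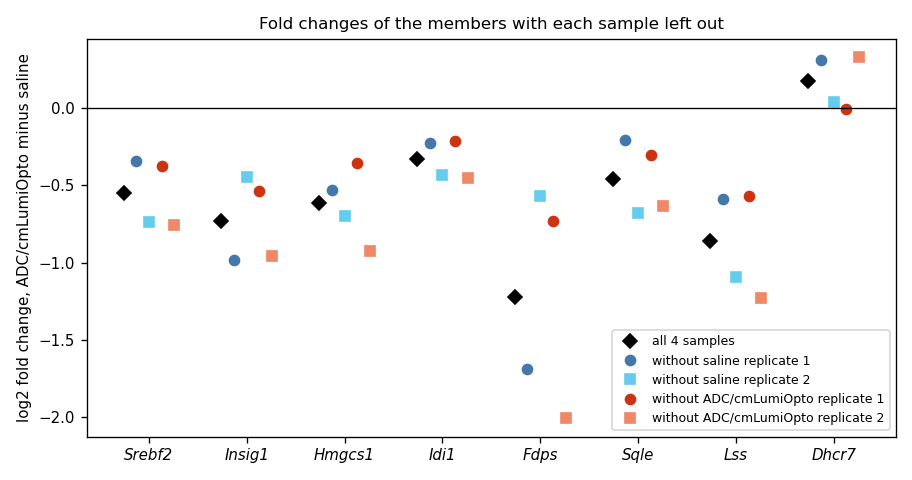
Log2 fold change of each member (ADC/cmLumiOpto minus saline) with all 4 samples (black diamonds) and from the fits that omit 1 sample (colored points). The other 7 members stay below 0 throughout, while Dhcr7 is above 0 except without ADC/cmLumiOpto replicate 1, where it is -0.0018.

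Where all genes with at least 1 count were tested instead of those past the filter, 6 members were lower at an unadjusted p under 0.05 (8.69% of all genes), and Hmgcs1, Lss and Insig1 passed the adjusted threshold (edgeR adjusted p 0.0443, 0.00519 and 0.0114), against 4.05% of 25563 genes in that direction. The edgeR exact test and DESeq2 called 0 members lower at the adjusted threshold, against 3.68% and 5.47% of the genes with an adjusted p. Log2 fold changes fell with gene length over the 15320 genes (Spearman rho -0.34, a correlation across genes, which are not independent). With that trend removed, 2 members (Hmgcs1 and Insig1) were lower at an unadjusted p under 0.05, against 9.57% of all genes, and the median was -0.48. The number was also 2 (Lss and Insig1) with library size alone in place of TMM, against 9.84% of all genes.

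Levels were compared between members per length, as RPKM (CPM divided by the gene length in kilobases), from the gene lengths listed with the counts. The mean over the 4 samples was highest for Srebf2 (27.7 ± 7.52, SD, n = 4), followed by Insig1 (22.3 ± 7.83), Hmgcs1 (18.9 ± 5.26) and Sqle (17.4 ± 4.39). These 4 overlapped in range between neighbors in the order and were not separated from each other. Idi1 (8.27 ± 1.32) and Dhcr7 (6.92 ± 1.00) came next, overlapped each other, and lay below every Sqle value. Lss (2.97 ± 1.20) and Fdps (0.467 ± 0.309, with the uncertainty above) were lower than all values of the members before them. This order depends on the listed lengths. They were 10787 bases for Lss and 4208 for Fdps, where the longest protein-coding transcripts (GENCODE vM21) have 4667 and 1382. For Hmgcs1 (4594 against 3464) and Idi1 (3505 against 3027) the lengths differed less. The order was not tested with transcript lengths.

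A further 14 enzyme genes of the pathway, listed by their textbook role, all passed the filter, and 10 were lower and 4 higher in ADC/cmLumiOpto. Of these 14, 2 had an unadjusted p under 0.05, both lower and none higher, against 12.2% and 11% of all tested genes. None passed the adjusted threshold in this test. The median log2 fold change of the 14 was -0.13. It was 0.14 without saline replicate 1 and -0.33 without saline replicate 2, so its sign depended on 1 sample. Between the saline samples, 13 of the 14 were lower in replicate 2, compared with 50.5% of all tested genes. The groups were apart for 6 of the 14, 5 lower and 1 higher, against 28.8% and 28.1% of all tested genes.

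Hsd17b7, a reductase of the demethylation of lanosterol, had 37.5 and 41.5 CPM in saline and 12.7 and 20.2 CPM in ADC/cmLumiOpto. Its log2 fold change of -1.26 (SE 0.26, adjusted p 0.116, edgeR) was the most negative of the 14, and its groups lay far apart. Unlike the members, Hsd17b7 passed the adjusted threshold with the edgeR exact test (adjusted p 0.00321) and DESeq2 (0.00218), and it also did so with no filter (1.87e-05) and with a block for the replicate number (0.0250). Fdft1, the squalene synthase, had 83.6 and 71.0 CPM in saline and 48.7 and 54.9 CPM in ADC/cmLumiOpto, a log2 fold change of -0.58 (SE 0.17, adjusted p 0.142, edgeR). Its unadjusted p was no longer under 0.05 without saline replicate 1 or without ADC/cmLumiOpto replicate 1.

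Of the enzymes before farnesyl diphosphate, the log2 fold change was -0.41 for Acat2 (acetoacetyl-CoA thiolase), -0.017 for the mevalonate kinase gene Mvk, 0.37 for Pmvk (phosphomevalonate kinase) and -0.21 for Mvd (the decarboxylase). Ggps1, which leads to geranylgeranyl diphosphate and away from sterols, had 0.21. Of the enzymes after lanosterol, it was -0.37 for the demethylase Cyp51, -0.058 for Tm7sf2 and 0.19 for Lbr (the sterol reductases of one step), -0.27 for Msmo1 and -0.45 for Nsdhl (removal of methyl groups). The remaining values were 0.075 for the isomerase Ebp and -0.037 for the desaturase Sc5d. None of these enzymes had an unadjusted p under 0.05, and those near 0 (Mvk, Tm7sf2, Ebp and Sc5d) changed sign with the scaling or the gene length correction.

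**Figure D3:**
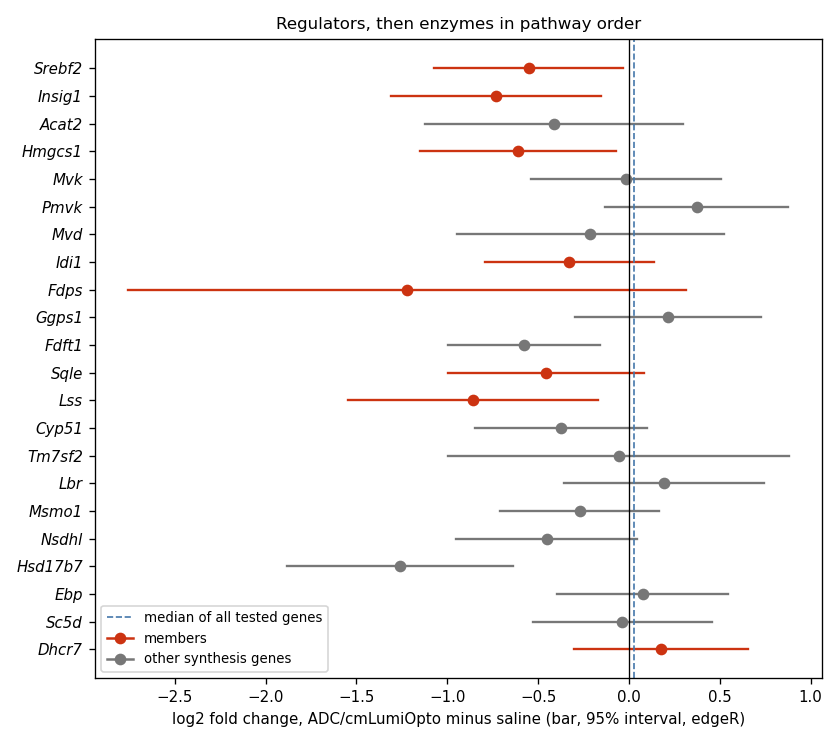
Log2 fold changes (ADC/cmLumiOpto minus saline) with 95% intervals from edgeR for the 8 members (red) and the 14 other enzyme genes (grey), regulators first and then in pathway order. The dashed line is the median of all tested genes (0.028), and 6 intervals lie wholly below 0, those of Srebf2, Insig1, Hmgcs1, Fdft1, Lss and Hsd17b7.

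**Figure D4:**
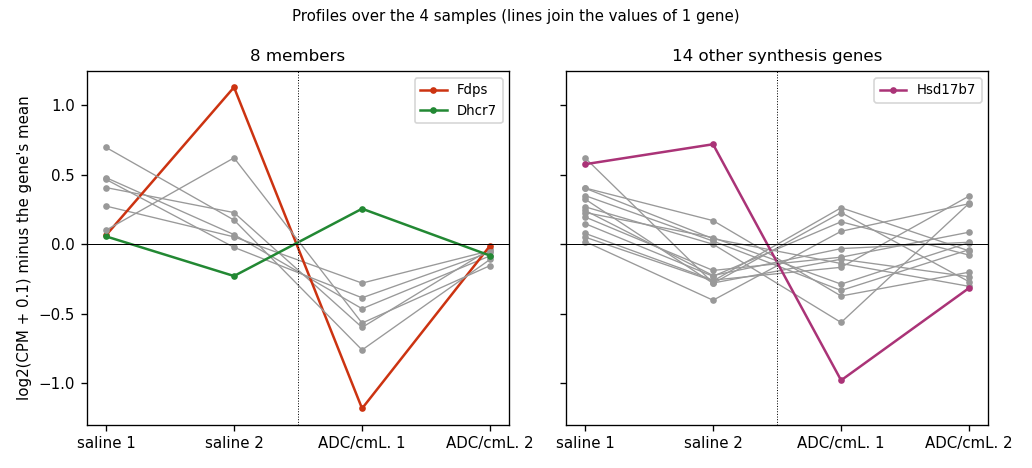
Log2(CPM + 0.1) minus the mean of the gene in each of the 4 samples, with lines joining the values of 1 gene, for the members (left) and the other enzyme genes (right). Most members are lowest in ADC/cmLumiOpto replicate 1, with Dhcr7 as the exception.

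Of 8 further genes of SREBP regulation, 6 were lower and 2 higher. An unadjusted p under 0.05 was found for 2, both lower, against 12.2% of all tested genes in that direction. Those 2 encode the proteases that release SREBP from the membrane. The log2 fold change was -0.46 for Mbtps1 (SE 0.17, adjusted p 0.180, edgeR) and -0.44 for Mbtps2 (SE 0.15, adjusted p 0.169). With the gene length trend removed, both were at -0.15 with an unadjusted p over 0.05, as they also were with upper-quartile normalization (-0.37 and -0.36). Both also lost it without saline replicate 1, saline replicate 2 or ADC/cmLumiOpto replicate 2. Insig2, the second INSIG gene, was at 0.33 (adjusted p 0.287, edgeR), opposite in sign to Insig1, and Srebf1, which encodes the SREBP-1 factors of fatty acid synthesis, was at -0.33 (adjusted p 0.332).

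Of 14 genes of cholesterol uptake and intracellular transport, all of which passed the filter, 9 were lower and 5 higher. At an unadjusted p under 0.05, 2 were lower and 1 higher, against 12.2% and 11% of all tested genes. Lrp1, a large endocytic receptor, had 803.1 and 1033 CPM in saline and 358.9 and 495.3 CPM in ADC/cmLumiOpto, a log2 fold change of -1.10 (SE 0.23, adjusted p 0.116, edgeR). Lrp1 passed the adjusted threshold with the exact test (adjusted p 0.00420), DESeq2 (0.000541), no filter (1.09e-06) and the replicate block (0.0265), and was at -0.69 with the length trend removed. Lrp8, a receptor for apolipoprotein E and reelin, was at -0.75 (SE 0.21, adjusted p 0.128, edgeR). It passed with no filter (adjusted p 0.0243, edgeR) and was at -0.41, with an unadjusted p over 0.05, once the length trend was removed. Of the 5 higher genes, only Npc2, the carrier of cholesterol out of lysosomes, had an unadjusted p under 0.05. It had 640.2 and 567.1 CPM in saline and 1163 and 832.4 CPM in ADC/cmLumiOpto (log2 fold change 0.72, SE 0.21, adjusted p 0.136, edgeR). Npc2 passed with DESeq2 (adjusted p 0.0237) and no filter (0.00399). It was at 0.47 without ADC/cmLumiOpto replicate 1, and its unadjusted p was over 0.05 without saline replicate 2.

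Of 10 genes of efflux, storage and oxysterol synthesis, all of which passed the filter, 7 were higher and 3 lower. An unadjusted p under 0.05 was found for 3, all higher, against 11% of all tested genes in that direction. Nr1h3, the gene of the oxysterol receptor LXR alpha, was at a log2 fold change of 1.60 (SE 0.43, adjusted p 0.123, edgeR), from 4.94 and 2.22 CPM to 10.9 and 10.9 CPM. Ch25h, which makes 25-hydroxycholesterol, was at 1.46 (SE 0.50, adjusted p 0.163, edgeR) and the efflux transporter Abcg1 at 0.71 (SE 0.27, adjusted p 0.187). Nr1h3 passed the adjusted threshold with the exact test (adjusted p 0.0218) and DESeq2 (0.0154), and all 3 genes passed with no filter. Single samples moved all 3, and Nr1h3 ranged from 1.14 to 2.28 with a sample left out. Ch25h was at 2.39 without saline replicate 1 and 0.90 without saline replicate 2, and Abcg1 at 1.13 and 0.39. The unadjusted p of Abcg1 was over 0.05 without saline replicate 2 or without either treated sample, and that of Ch25h without ADC/cmLumiOpto replicate 1 or with the length trend removed. Abca1, the other main efflux transporter, was at -0.45 (adjusted p 0.268, edgeR).

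Of 11 genes of fatty acid synthesis and desaturation, 8 were lower and 3 higher. An unadjusted p under 0.05 was found for 5, all lower, against 12.2% of all tested genes in that direction. Fasn, the fatty acid synthase, had 630.8 and 527.4 CPM in saline and 260.8 and 312.4 CPM in ADC/cmLumiOpto, with a log2 fold change of -1.01 (SE 0.18, adjusted p 0.116, edgeR). Acly, which supplies cytosolic acetyl-CoA to both pathways, was at -0.76 (SE 0.17, adjusted p 0.116, edgeR), the acetyl-CoA carboxylase gene Acaca at -0.87 (SE 0.21, adjusted p 0.123) and the desaturase gene Scd2 at -0.89 (SE 0.30, adjusted p 0.161). Fasn, Acly and Acaca passed the adjusted threshold with the exact test (adjusted p 0.00235, 0.0224 and 0.0245) and DESeq2 (0.000114, 0.00353 and 0.0125), Scd2 with DESeq2 (0.0372), all 4 with no filter, and Fasn with the replicate block (0.0381). Acaca was at -0.48, with an unadjusted p over 0.05, once the length trend was removed. Scd2 was at -0.45 without saline replicate 1 and -0.67 without ADC/cmLumiOpto replicate 1, in both cases with an unadjusted p over 0.05.

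Markers of cell types moved with the groups beside these results. Of all tested genes, 11% were higher and 12.2% lower at an unadjusted p under 0.05 (edgeR). Alveolar type 2 markers were higher in 4 of 5 genes at an unadjusted p under 0.05. Their summed level was 1546 and 399 CPM in saline and 5331 and 4504 CPM in ADC/cmLumiOpto, of which Sftpc alone had 4321 and 3426 CPM. The other gene, Abca3, went the opposite way, with 146.3 and 127.6 CPM in saline and 113.1 and 121.1 CPM in ADC/cmLumiOpto. Alveolar type 1 markers (4 of 4 higher) summed to 196 and 75.2 CPM against 582 and 580.2 CPM, and club cell markers (3 of 3 higher) to 1145 and 79.1 CPM against 6188 and 2944 CPM. Fibroblast markers were lower in 4 of 4 genes, with 3641 and 2461 CPM in saline and 1077 and 941 CPM in ADC/cmLumiOpto. Proliferation markers were lower in 3 of 3 genes, 2 of them at an unadjusted p under 0.05, with 869.5 and 869.8 CPM against 533.7 and 484.2 CPM. Neutrophil markers (3 of 3 higher) were at 992 CPM in ADC/cmLumiOpto replicate 1 and 6928 CPM in replicate 2, against 964 and 382 CPM in saline.

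Among the remaining lists, 1 of 3 endothelial genes was higher at an unadjusted p under 0.05 (summed level 277 to 343 CPM in saline, 342 to 528 CPM in ADC/cmLumiOpto), as was 1 of 3 leukocyte genes (49.9 to 76.9 CPM against 115 to 179 CPM). In lists this short, single genes are to be read beside the shares of all tested genes, 11% higher and 12.2% lower. Of 4 macrophage genes 2 were lower and 2 higher (339 to 503 CPM against 300 to 310 CPM). Only Mrc1 had an unadjusted p under 0.05, with 211.8 and 391.8 CPM in saline and 134.9 and 171.3 CPM in ADC/cmLumiOpto. Adgre1 and Cd68 were higher, at log2 fold changes of 0.33 and 0.36, and Marco was below 1 CPM in every sample. The tumor epithelium list had 3 of 4 genes lower, of which 1, Cd276, had an unadjusted p under 0.05. Cd276, the target of the ADC, was at a log2 fold change of -0.63 (SE 0.17, adjusted p 0.123, edgeR). Adipocyte markers were below the filter, with Adipoq at 0 in 3 of the 4 samples. In bulk material, fewer cells of a type and less RNA per cell cannot be told apart, and the part of these cell types in the results for the members was not tested.

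Outside the lists, the genes whose profile over the 4 samples was nearest to the mean profile of the members were Dhx34, Dennd4c and Shroom2, with root mean square differences of 0.0170, 0.0177 and 0.0180 in centered log2 CPM. Within the wider limit of 0.1 lay 317 of 15219 candidate genes, and with only 4 samples such likeness is a description only.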

How the data were processed

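The authors deposited unnormalized raw counts of reads for 56748 genes for 2 saline and 2 ADC/cmLumiOpto samples. Per the study's methods, reads were aligned with HISAT2 to GRCm38/mm10, whereas the submitters' processing notes name HISAT2, HISAT, TopHat2 and mm39. The counting program and its strand setting are not given in the sources used here. The positions listed with the counts differed from GENCODE vM21 (GRCm38) for all but 1472 of 52073 shared identifiers. The length of the span was the same for 50383 of them, including all 8 members. Genes are therefore given by identifier and chromosome, and promoter positions are those of RefSeq on GRCm38.p6. Gene lengths were taken as the authors listed them.

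The comparison was fitted with edgeR 4.0.16 under R 4.3.3 (filterByExpr at its defaults of 10 counts and 15 in total, TMM factors between 0.973 and 1.04, glmQLFit and glmQLFTest, two-sided, Benjamini-Hochberg adjustment over all 15320 tested genes, threshold 0.05). Of the genes listed, 31185 had no count in any sample. Each SE was derived from the fold change and its F statistic, and fold changes used a prior count of 0.125. Alternatives were the edgeR exact test, DESeq2 1.42.0, library size without TMM, upper-quartile normalization, 2 other filters, protein-coding genes only, a block for the replicate number, removal of the gene length trend (lowess span 0.3), and each sample left out in turn. Leaving Fdps out of the members was added after seeing the data. Near-identical transcripts were found with BLAST 2.17.0 (at least 90% identity over at least 100 bases of GENCODE vM21 transcripts). In simulated data for this comparison, the quasi-likelihood test recovered 95.5% of 200 genes changed by 2 on the log2 scale among 15083 tested. With the measured counts, the same test called 0 of 15320 genes at the adjusted threshold. Recovery of smaller changes, such as the members' median of -0.58, was not tested, and neither was recovery at the spread of the measured samples.

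The members and lists were chosen with earlier results of these data known. Some genes of the pathway lists are not reported here and were left out of the counts of their lists. Named were all members and all other listed enzymes, up to 4 genes by smallest p in each other list, the 3 nearest profiles, and marker genes. Total counts between 15263375 and 19675436 per sample limit precision mainly for Fdps, and floors cover counting error only.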

Additional observations from a re-analysis of the deposited data

How the results depend on the processing

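Genes called at an adjusted p under 0.05 numbered 0 with the quasi-likelihood test, 1170 with the edgeR exact test, 1332 with DESeq2, 2259 with no filter beyond 1 count in total, and between 0 and 218 with a sample left out. Members at an unadjusted p under 0.05 numbered 2 of 8 with library size without TMM and 2 with the gene length trend removed, and between 0 and 6 with a sample left out, where the other enzymes of the pathway numbered between 1 and 4. Of all genes, 9.84% were lower at an unadjusted p under 0.05 without TMM and 9.57% with the gene length trend removed. With a sample left out this share was between 5.09% and 12.8%, and counts this small are to be read beside it. The median log2 fold change of the members was -0.53 with library size without TMM, -0.50 with upper-quartile normalization, -0.48 with the gene length trend removed, -0.55 without Fdps, and between -0.84 and -0.36 with a sample left out. The median of all genes was 0.11 with upper-quartile normalization and 0.073 without TMM, so the members' median relative to it was -0.61 and -0.60, as with TMM (-0.61).

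Samples with the same replicate number deviated together only weakly (r = 0.0985 across genes), and no label gives the numbers a meaning, so they were not taken as pairs. With the replicate number as a block, 607 genes were called, among them Hsd17b7, Lrp1 and Fasn (edgeR adjusted p 0.0250, 0.0265 and 0.0381) and no member. In that fit 5 members were lower at an unadjusted p under 0.05 (12.5% of all genes), and the median of the members was -0.59.

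Values near 0 changed sign. Without TMM, Mvk was at 0.029 and Sc5d at 0.0077. With upper-quartile normalization, Mvk was at 0.066, Tm7sf2 at 0.029 and Sc5d at 0.047. With at least 10 counts in every sample, Mvk was at 0.020 and Sc5d at 0.00079, and with protein-coding genes only Mvk was at 0.011. With the length trend removed, Ebp was at -0.12 and Sc5d at 0.027. With a sample left out, Acat2 ranged from -0.79 to 0.097, Mvk from -0.20 to 0.18, Mvd from -0.71 to 0.16, Tm7sf2 from -0.33 to 0.27, Lbr from -0.091 to 0.43, Ebp from -0.099 to 0.27, Sc5d from -0.25 to 0.21 and Dhcr7 from -0.0018 to 0.33. The cause was not tested for any of these changes. With a sample left out, 1 group holds a single sample, which is assumed to vary like the other group.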
